A study of Homo sapiens with 12 samples.

Results

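The regions described here are 2179 sites in LNCaP cells at which a wild-type (WT) and a mutated FOXA1 were both called by the peak caller but differed at least 2-fold in ChIP-seq tags. They were chosen by the ratio of the deposited normalized tag counts, K295A over WT, taking the highest peak of each protein in a merged region. Merging the peaks of both proteins that shared at least 1 base gave 110802 regions, of which 67500 held a peak of each and lay outside the peaks of 2 untagged control libraries. Of those 67500 shared regions, 627 had a ratio of at least 2 (called higher below), 1552 had a ratio of at most 0.5 (called lower) and 65321 lay within 2-fold. The members made up 3.23% of the shared regions.

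LNCaP is an androgen-responsive human prostate cancer line, and the series asks how FOXA1 is regulated in such cells by Polycomb proteins and by the BUB3 and USP7 deubiquitinating complex. For the HA libraries, cells were collected 5 days after infection with the pGIPZ control vector, a hairpin against FOXA1 (shFoxA1), shFoxA1 with HA-tagged WT FOXA1, or shFoxA1 with HA-tagged K295A, in 1 library each. An antibody to FOXA1 itself was used after 7 days in DMSO as vehicle, EPZ-6438 at 1 uM, P5091 at 3 uM or the combination of these 2 doses, in 2 libraries per group. EPZ-6438 inhibits the methyltransferase EZH2, and P5091 inhibits the deubiquitinase USP7. The pGIPZ and shFoxA1 cells carry no HA-tagged protein by their labels, so their peaks stand for the background of the antibody. Both HA-tagged proteins were expressed on top of the same hairpin, and the FOXA1 libraries come from cells for which no hairpin or tagged protein is labelled. The peak lists hold no protein or RNA level, so neither the knockdown nor the amounts of the tagged proteins could be checked, and less tagged protein and less binding per molecule cannot be told apart.

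FOXA1 is a forkhead transcription factor that can bind DNA within closed chromatin, and factors with that ability are called pioneer factors. In prostate cells it opens enhancers at which the androgen receptor and other factors then bind. K295A replaces a lysine of FOXA1, reported as a target of methylation by EZH2, with alanine, which cannot carry that mark. The files give positions in the genome build hg19. Genes, exons and sequences at these positions were not analysed here.

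The 4 HA libraries held 11640056 to 13694090 tags, with 13102175 for WT and 13275226 for K295A. There were 97120 WT and 81607 K295A peaks, against 982 with pGIPZ and 971 with shFoxA1. The FOXA1 libraries held 12299238 to 22589685 tags, and combination replicate 1 stood apart with 30811 peaks against 68504 to 84423 in the other 7. Values below are normalized tag counts, that is tags in a peak per 1e7 tags of the library, unless whole tags are named.

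The higher regions were weak WT sites and the lower regions were weak K295A sites. At the higher regions the median normalized tag count was 9.92 for WT (quartiles 8.40 to 12.2) and 22.6 for K295A (18.8 to 27.9), which is 13 and 30 whole tags. At the lower regions it was 25.2 for WT (21.4 to 30.5) and 10.5 for K295A (9.79 to 13.6), or 33 and 14 tags. The regions within 2-fold had medians of 19.1 for WT and 18.1 for K295A. Summed over both libraries the medians were 43 tags at the higher, 47.5 at the lower and 49 at the other shared regions, so the members were not much shallower as a whole. All of these values follow in part from the choice of regions by their ratio.

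Strong sites were rare among the members. The highest K295A value at a higher region was 61.8 and the highest WT value at a lower region was 112.2. The median ratio was 2.18 at the higher and 0.457 at the lower regions, so most members lay close to the threshold. Only 15 higher and 24 lower regions differed by 3-fold or more, and ratios ran from 0.222 to 3.84. A called peak needs a minimum of tags, and the lowest recovered values at shared regions were 8 tags for WT and 9 for K295A, which bounds the ratio a weak region can reach.

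**Figure D1:**
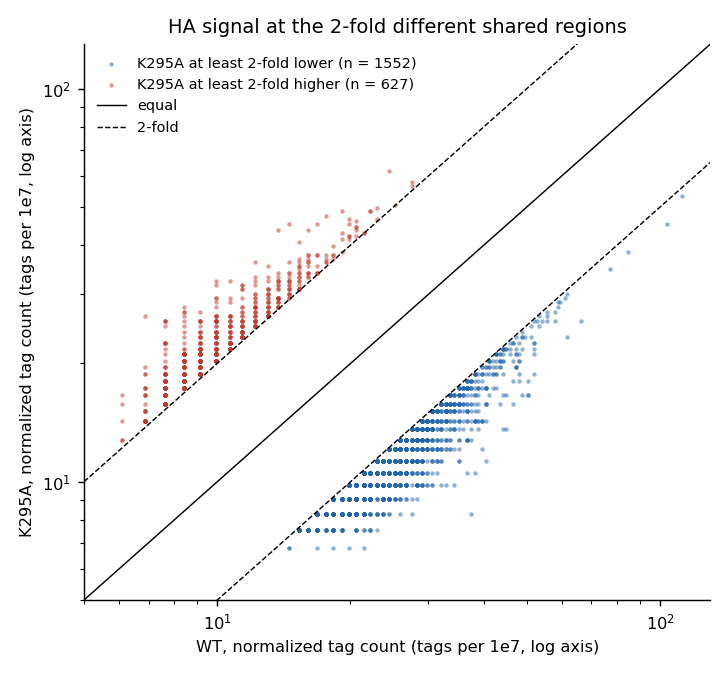
Normalized tag counts per 1e7 library tags at the 627 higher (red) and 1552 lower (blue) regions, WT on the horizontal and K295A on the vertical log axis, with a solid line at equal values and dashed lines at 2-fold. The higher regions reach 61.8 for K295A and the lower regions 112.2 for WT, and most points of both directions lie close to the dashed lines.

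The lower regions outnumbered the higher ones in the deposited values, with 2.3% of the shared regions lower and 0.929% higher. These shares are set by the rule that chose the members, and nothing is read from them. The median ratio over all shared regions was 0.940, and dividing every ratio by that median turned the split into 1.61% higher and 1.40% lower. The excess of lower over higher regions therefore depends on the scaling to library totals. The findPeaks score, which counts tags with at most 1 per base, was less often 2-fold apart at the same sites. By score 242 of the 627 higher and 423 of the 1552 lower regions also passed 2-fold, with median score ratios of 1.90 and 0.559.

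Counting noise was set beside these counts because each tagged protein has 1 library, so no replicate spread is known for the ratio. Each region's summed tags were divided between WT and K295A in the common proportion, with the lowest tags seen as the calling minimum, and the number past 2-fold was computed by binomial counting. That calculation gave 493 higher and 1192 lower regions, so the observed 627 and 1552 were 1.27 and 1.30 times as many. With the tag thresholds of the file headers as the calling minimum, a choice made after the data were seen, it gave 316 and 754. With no lower limit on tags it gave 568 and 1519, nearer to the observed counts. The size of the excess over all regions thus depends on the calling minimum. Among regions with fewer than 30 summed tags the observed numbers fell short of the computed ones, at 19 against 117 higher and 2 against 130 lower. At 30 to 39 summed tags they also fell short, at 204 against 236 higher and 333 against 605 lower.

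From 40 summed tags upward the observed numbers exceeded the computed ones in both directions. At 40 to 59 tags there were 308 higher regions against 125 and 866 lower regions against 381. At 60 to 99 tags there were 92 against 15.1 and 329 against 71.9, which is 6.10 and 4.58 times as many. Regions with at least 100 summed tags gave 4 higher against 0.289 and 22 lower against 3.08. Only 15.3% of the higher and 22.6% of the lower regions had 60 or more summed tags. The calculation does not hold the spread between separate experiments, which was not measured.

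**Figure D2:**
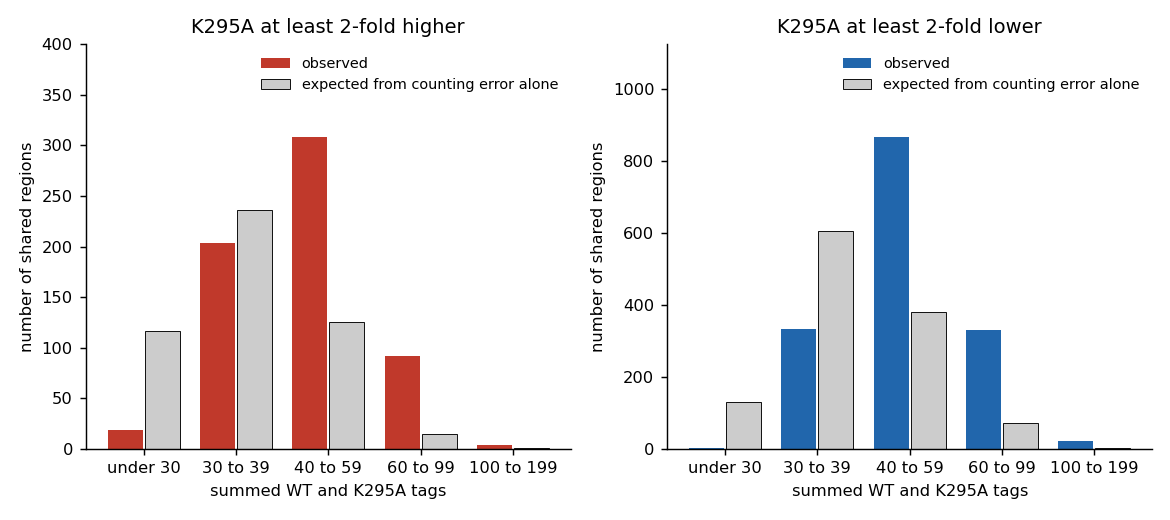
Number of shared regions at least 2-fold higher (left) or lower (right) with K295A, in classes of summed WT and K295A tags, as observed (coloured bars) and as computed from counting error alone (grey bars); the class of 200 or more tags is not drawn. Observed bars are below the grey ones under 40 tags and above them from 40 tags on, for example 308 against 125 and 866 against 381 at 40 to 59 tags.

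The 95% exact binomial interval of the ratio, which covers counting error only, left out 1 at 530 of the 627 higher and at 1440 of the 1552 lower regions. The interval is built from the tags whose ratio chose the members. These counts therefore follow largely from the choice, and nothing is read from them. Over all shared regions 1.95% had an interval above 1 and 5.47% an interval below 1. The interval lay wholly at 2 or more at 0 higher regions and wholly at 0.5 or less at 1 lower region. At this depth the interval thus took in differences smaller than 2-fold at all but 1 of the members. That member had the lowest ratio of all shared regions, and its interval is not adjusted for that choice, so it is not set apart either.

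The higher region whose interval lay farthest above 1 was chr4:151564479-151564865, where WT stood at 13.7 and K295A at 43.7, a ratio of 3.19 (95% interval 1.85 to 5.74). FOXA1 was called there in 6 of 8 libraries, at 7.5 to 24.4, with no peak in DMSO replicate 1 and 11.6 in DMSO replicate 2. The site chr3:54933290-54933640 had 14.5 for WT and 45.2 for K295A, which is a 3.12-fold ratio (1.83 to 5.53). Its FOXA1 values were 47.5 and 12.8 in DMSO replicates 1 and 2, so the untreated libraries themselves differed there by more than the tagged proteins. The highest ratio, 3.84 (1.81 to 9.08), was at chr12:94082943-94083537, with 6.87 for WT and 26.4 for K295A. The centres of its WT and K295A peaks were 293 bases apart, against a median of 40 bases at the higher regions, so those peaks do not share a summit.

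Strong FOXA1 sites were found among the named higher regions too. At chr10:31393800-31394116, where WT stood at 9.92 and K295A at 32.4 (3.27-fold, 1.72 to 6.62), FOXA1 was at 73.9 and 56.9 in DMSO, 60.2 and 85.4 in EPZ-6438, 71.8 and 56.9 in P5091, and 38.1 and 73.4 in the combination. The lowest of these was combination replicate 1, the library with the fewest peaks, and the other groups overlapped. The region chr5:166805919-166806226 had 9.92 for WT and 31.6 for K295A, or 3.19-fold (1.68 to 6.47). FOXA1 was at 37.3 and 32.5 there in DMSO and was called in all 8 libraries. The deepest of the named higher regions was chr7:39747547-39747895, at 24.4 for WT against 61.8 for K295A (2.53-fold, 1.66 to 3.93). Its FOXA1 values in DMSO were 59.2 and 36.6, and it had no peak only in combination replicate 1.

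Several of the most unequal lower regions had no FOXA1 peak in untreated cells. The lowest ratio, 0.222 (0.104 to 0.432), was at chr2:114490615-114491004, with 37.4 for WT and 8.29 for K295A. FOXA1 was called there in 3 libraries, EPZ-6438 replicates 1 and 2 at 15.1 and 12.2 and combination replicate 2 at 17.4, and in no DMSO library. At chr18:47363428-47363756, at 40.5 for WT against 11.3 for K295A (0.279, 0.146 to 0.503), no FOXA1 library had a peak. The same held at chr6:17950393-17950838, with 38.2 and 10.5 (0.275, 0.141 to 0.508). A missing peak says that the site did not pass the caller's thresholds in that library, not that no FOXA1 was there.

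Other named lower regions ranged from weak to strong in FOXA1. The site chr2:53147402-53147752 had 45.0 for WT and 13.6 for K295A, and its 3 FOXA1 values were 7.55 in DMSO replicate 2, 9.08 in P5091 replicate 2 and 14.2 in combination replicate 2, all from replicate 2. At chr10:916820-917129 (44.3 and 13.6) DMSO had 11 and 10.4. By contrast chr13:91999740-92000111 (36.6 and 10.5, ratio 0.287) was called in all 8 FOXA1 libraries, with 37.3 and 30.8 in DMSO. The region chr1:207924262-207924593 (50.4 and 16.6, ratio 0.329, 0.193 to 0.540) also had 8 FOXA1 peaks, with 54.8 and 58.1 in DMSO. At chr18:13291117-13291501, with 39.7 for WT and 12.1 for K295A, DMSO had 19 and 25.5. A low K295A value thus occurred at sites with strong, weak and no called FOXA1.

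The sites named on either side of the threshold were picked as the nearest to it, so their ratios are alike by choice. Just inside it were chr5:16936722-16937051 (25.2 for WT and 50.5 for K295A) and chr11:35038524-35038854 (21.4 and 42.9), both with a ratio of 2.00. Just outside were chr1:65573759-65574063 and chr1:79092970-79093351, each with 11.4 and 22.6 and a ratio of 1.98. On the lower side chr1:97132-97493 and chr10:69497729-69498077 (each 24.4 and 12.1, ratio 0.496) were members, and chr16:58898568-58898916 (48.1 and 24.1) and chr14:95176216-95176561 (43.5 and 21.8), at 0.501, were not.

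FOXA1 occupancy, which the choice of regions did not use, differed between the directions. Of the higher regions, 372 of 627 (59.3%, 95% interval 55.4 to 63.2) held a FOXA1 peak in both DMSO libraries, and of the lower regions 574 of 1552 (37.0%, 34.6 to 39.4). The regions within 2-fold lay between, at 55.0% (54.6 to 55.4), nearer to the higher regions. The intervals are exact binomial ones, and neighbouring sites of 1 library are not replicates, so no test of the difference was made over regions. At least 1 of the 8 FOXA1 libraries had a peak at 79.3% of the higher, 62.6% of the lower and 76.3% of the other shared regions. All 8 had one at 31.9%, 16.0% and 31.4%.

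The order held in each of the 8 libraries on its own. In DMSO replicate 2, P5091 replicate 1 and combination replicate 1, however, the 95% interval of the higher regions took in the within-2-fold share. DMSO replicates 1 and 2 had a peak at 63.5% and 67.8% of the higher, 58.4% and 64.5% of the within-2-fold and 41.5% and 47.4% of the lower regions. In EPZ-6438 the shares were 63.8% and 68.7% at the higher and 41.8% and 47.2% at the lower regions. In P5091 they were 59.6% and 69.4%, against 40.1% and 50.2%. Combination replicate 1 was low throughout, with 36.7%, 35.5% and 19.1% of the higher, within-2-fold and lower regions, and replicate 2 had 67.3%, 62.3% and 45.1%. Leaving combination replicate 1 out, all other 7 libraries had a peak at 46.9%, 43.7% and 26.4%. The gap between higher and lower was larger than the spread between the 2 replicates of DMSO, EPZ-6438 and P5091. In the combination, the replicates of 1 class differed by more than the directions did within a library.

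**Figure D3:**
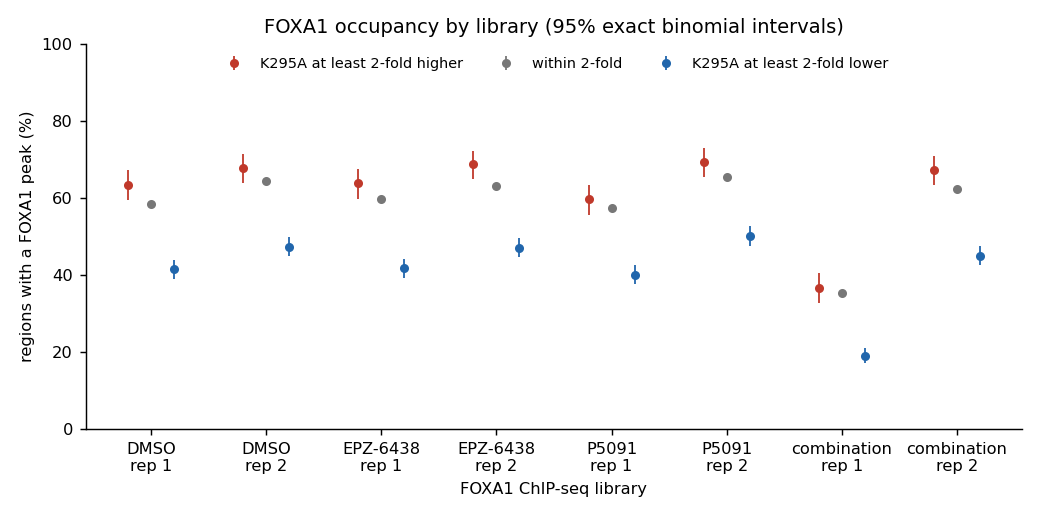
Percent of higher, within-2-fold and lower regions with a FOXA1 peak in each of the 8 FOXA1 libraries, with 95% exact binomial intervals that cover counting error only. The lower regions are lowest in every library, from 19.1% in combination replicate 1 to 50.2% in P5091 replicate 2.

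Regions of the same summed tags were set side by side. Under 30 summed tags, where members were few, 5 of 19 higher and 1 of 2 lower regions were called in both DMSO libraries. At 30 to 39 summed tags the shares were 45.1% of the higher, 39.5% of the within-2-fold and 35.1% of the lower regions. At 40 to 59 tags they were 63.6%, 50.3% and 35.2%. At 60 to 99 tags they were 81.5%, 66.1% and 41.6%. The gap between the directions widened over these 3 classes, and the share of lower regions hardly moved between 30 and 59 tags. From 100 to under 200 tags, 4 of 4 higher and 13 of 21 lower regions were called, against 86.0% of the within-2-fold regions.

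Occupancy at the members tracked the K295A tags more closely than the WT tags. Among regions with 20 to 29 WT tags, FOXA1 was called in both DMSO libraries at 85.9% of the higher and 34.3% of the lower regions, against 48.9% of those within 2-fold. With 30 to 39 WT tags the lower regions had 35.6% against 59.9%, and with 40 to 59 WT tags 39.7% against 71.5%. Under 15 WT tags the higher regions had 51.5% against 39.2%. Members thus departed from other shared regions of the same WT level, upward where K295A was higher and downward where it was lower. At equal WT tags the rule itself sets the K295A tags of members apart. Occupancy of the within-2-fold regions rose from 34.3% under 15 to 92.1% at 60 or more K295A tags. The directions of these departures thus follow in part from the choice of regions.

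Set beside regions of the same K295A tags, the departures were smaller in the classes with at least 20 members of a direction. Under 15 K295A tags the lower regions had 34.4% against 34.3% within 2-fold. At 15 to 19 K295A tags 4 of 14 higher regions (28.6%) and 36.9% of the lower regions were called, against 39.4%. At 20 to 29 K295A tags the higher regions had 47.6%, the lower regions 41.3% and the within-2-fold regions 50.6%. At 30 to 39 K295A tags the shares were 64.5%, 62.1% and 63.9%. At 40 to 59 K295A tags the higher regions had 81.6% against 77.3%, and 3 of 3 lower regions were called.

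The same comparison in the libraries treated with inhibitors used no DMSO library and was added after the data were seen. With a peak in both EPZ-6438 libraries as the measure, the lower regions with 40 to 59 WT tags had 42.5% against 71.2% within 2-fold, whereas under 15 K295A tags they had 33.6% against 34.1%. At 40 to 59 K295A tags the higher regions had 82.5% against 76.6%. With both P5091 libraries the corresponding pairs were 39.7% against 70.4%, 34.1% against 33.7% and 79.6% against 76.6%. The FOXA1 libraries share the cell line, the antibody and the caller's settings, so their shares are not independent of each other.

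**Figure D4:**
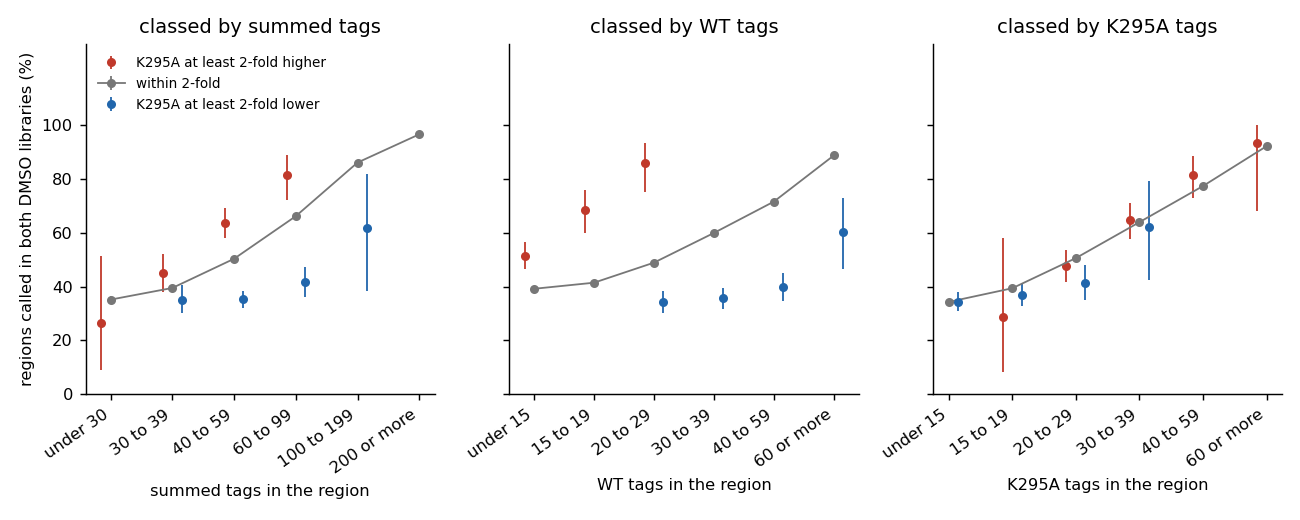
Percent of regions called in both DMSO FOXA1 libraries, in classes of summed tags, WT tags and K295A tags, for higher, within-2-fold and lower regions, with 95% exact binomial intervals; classes with under 10 regions are not drawn. At equal WT tags the members lie apart from the grey within-2-fold points (85.9%, 48.9% and 34.3% at 20 to 29 tags), and at equal K295A tags they lie closer to them (47.6%, 50.6% and 41.3%).

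Over all shared regions, occupancy in DMSO rose with the ratio from 0.5 to about 1 and was nearly level from there to 2.5. The share called in both DMSO libraries was 37.6% at ratios under 0.4 and 36.9% from 0.4 to 0.5. It was 42.2% from 0.5 to 0.6, 47.3% from 0.6 to 0.7, 51.8% from 0.7 to 0.8 and 58.2% from 0.9 to 1.1. Above that it stayed between 57.8% and 58.8% up to a ratio of 2.5, and was 67.7% (57.5 to 76.7) at the 99 regions with a ratio of 2.5 or more. Within 40 to 59 summed tags the share ran from 35.5% at ratios under 0.4 through 50.8% near 1 to 77.4% at 2.5 or more. Directly at the threshold, 60.2% of the 186 regions from 2 to 2.1 and 63.6% of the 302 from 1.9 to 2 were called, as were 36.3% of the 369 from 0.48 to 0.5 and 39.8% of the 527 from 0.5 to 0.52.

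**Figure D5:**
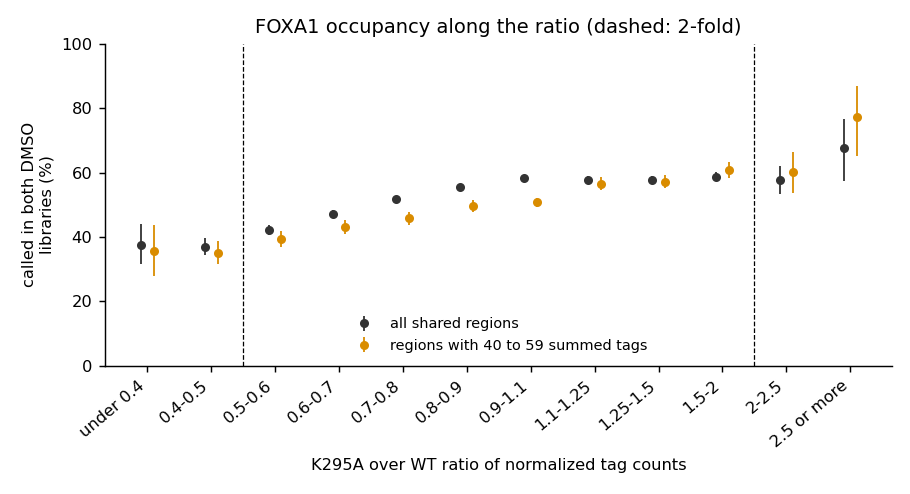
Percent of shared regions called in both DMSO FOXA1 libraries in classes of the K295A over WT ratio, for all shared regions and for those with 40 to 59 summed tags, with 95% exact binomial intervals and dashed lines at 2-fold. The share of all regions rises from 36.9% at 0.4 to 0.5 to 58.2% at 0.9 to 1.1 and is nearly level from there to a ratio of 2.5.

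FOXA1 peaks at the lower regions were also lower than at the other shared regions. Where called, the median FOXA1 value in DMSO replicates 1 and 2 was 25.6 and 22.6 at the higher, 28.5 and 23.8 at the within-2-fold and 22.7 and 18.0 at the lower regions. At 60 to 99 summed tags the higher regions stood above those within 2-fold, with 37.3 and 31.9 at the higher, 34.4 and 30.2 at the within-2-fold and 27.8 and 21.5 at the lower regions. In combination replicate 1 the medians were 13.1, 15 and 12.5, below every other library.

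Taken over every region of a direction, gains and losses of FOXA1 peaks under treatment were mostly near the share of all shared regions. Called in both DMSO libraries and in no EPZ-6438 library were 10 higher (1.59%) and 24 lower regions (1.55%), against 1.83% of all shared regions. The reverse, a peak in both EPZ-6438 and no DMSO library, was seen at 10 higher and 24 lower regions, against 1.76%. P5091 lost 7 higher and 18 lower regions and gained 1 and 15, against 1.1% lost and 1.09% gained among all shared regions. The gain at 1 higher region (0.159%) was the value farthest below its background. The combination lost 26 higher (4.15%) and 66 lower regions (4.25%), against 3.84%, and gained 3 and 7, against 0.354%. A loss needs a peak in both DMSO libraries, which 372 higher, 574 lower and 36881 of all shared regions had. Of these, EPZ-6438 lost 10, 24 and 1235, P5091 lost 7, 18 and 740, and the combination lost 26, 66 and 2591. Per region called in both DMSO libraries, the lower regions thus lost more than all shared regions in each contrast, though on few regions. Their called FOXA1 peaks were also lower in DMSO replicates 1 and 2, with medians of 22.7 and 18.0 against 28.5 and 23.8 within 2-fold. The cause of the larger loss was not tested. Gains were not set against the regions without a DMSO peak, so they cannot be compared in the same way. The 3 contrasts share the DMSO libraries, and the losses in the combination also hold the low replicate 1.

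FOXA1 height was tested at the 24242 regions called in all 8 FOXA1 libraries, of which 200 lay at higher and 248 at lower members. With limma and Benjamini-Hochberg adjustment, 0 of these 448 passed an adjusted p of 0.05 in EPZ-6438, P5091 or the combination against DMSO, and 0% of all 24242 did. At an unadjusted p under 0.05 there were 2 members in EPZ-6438 (0.446%, against 0.961% of all tested regions), 1 in P5091 (0.223%, against 0.0495%) and 49 in the combination (10.9%, against 14.1%). By edgeR 0 members passed the adjusted threshold too, with 34, 3 and 33 (7.59%, 0.670% and 7.37%) at an unadjusted p under 0.05, against 7.06%, 0.837% and 10.5% of all tested regions. The median log2 difference at the higher and lower members was 0.01 and 0.00 in EPZ-6438, 0.00 and -0.01 in P5091, and -0.61 and -0.55 in the combination. The corresponding medians over all tested regions were -0.08, -0.02 and -0.69, so the members did not stand far from the rest. A wider fit took regions called in at least 4 of the 8 libraries, with a library that had no peak entered as 0. It tested 1142 FOXA1 regions at members (431 at higher and 711 at lower) among 72570, and 0 passed in each contrast, 0% of all tested. At an unadjusted p under 0.05 were 3.15%, 1.58% and 9.63% of the members, against 4.42%, 2.51% and 11.1% of all.

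Because replicate numbers paired the libraries, the fit with a replicate block and with each library centred on its median is given beside this. It called 3 members in EPZ-6438, all upward, against 0.322% of all tested regions upward and 0.367% downward. In P5091 it called 0, and in the combination 11, of which 9 rose and 2 fell, against 1.8% and 2.43%. Leaving out combination replicate 1 gave 11 members in EPZ-6438 (1.55%, against 1.62% of all tested regions) and 2 in the combination (0.282%, against 0.554%). Leaving out replicate 2 gave 6 (1.34%, against 1.97%) and 25 (5.57%, against 7.67%). For EPZ-6438 the count was 0 without either DMSO or either EPZ-6438 library.

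The 3 EPZ-6438 members of the blocked and centred fit are named because so few passed, after their values were seen. In the fit without block and centring 0 members passed. At chr5:147938456-147938810 (higher; 9.16 for WT and 19.6 for K295A) FOXA1 was at 22.7 and 22.1 in DMSO and at 63.3 and 61.8 in EPZ-6438, with 45.7 and 36.9 in P5091 and 36.3 and 56.0 in the combination. All 6 treated libraries were above both DMSO libraries there. The blocked and centred log2 difference was 1.50 ± 0.27 (SE, limma adjusted p 0.00225) in EPZ-6438 and 1.66 ± 0.27 (adjusted p 0.000156) in the combination. At chr7:10914701-10915048 (higher; 9.92 and 20.3) DMSO was at 17.6 and 26.7 and EPZ-6438 at 40.7 and 58.5, a difference of 1.19 ± 0.29 (adjusted p 0.0291). At chr1:160171685-160171989 (lower; 22.9 and 10.5) DMSO was at 38 and 44.1 and EPZ-6438 at 67.7 and 95.1, a difference of 1.01 ± 0.26 (adjusted p 0.0381). DMSO and EPZ-6438 did not overlap at any of the 3, which follows largely from their choice by that contrast. At the chr1 site P5091 was at 26.1 and 64.8 and the combination at 33.1 and 102.6, so both overlapped DMSO there. At the chr7 site P5091 was at 24.1 and 35.1 and the combination at 23.8 and 58.4, and both overlapped DMSO as well. These values are not centred by library. In the blocked and centred fit the combination also passed at both sites. Its log2 difference was 1.43 ± 0.29 (limma adjusted p 0.00266) at the chr7 site and 1.18 ± 0.26 (adjusted p 0.00473) at the chr1 site.

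The members were spread over the genome much as the other shared regions were. Chromosomes 1 to 22 and X held 620 higher and 1541 lower regions, chromosome Y 4 and 8, and unplaced or alternative contigs 3 and 3. The share of shared regions that were higher ran from 0.482% on chromosome 20 to 1.46% on chromosome Y, and the share that were lower from 1.70% on chromosome 17 to 2.92% on chromosome 9. The median gap to the next shared region was 13370 bases at the higher, 12471.5 at the lower and 11486 at the other regions.

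The neighbours of the members were mostly within 2-fold. Another shared region lay within 10 kb of 39.6% of the higher (35.7 to 43.5), 44.3% of the lower and 45.6% of the other regions. Where there was one, that neighbour was itself lower at 3.92% (2.60 to 5.66) of the lower regions, against 1.61% for the higher and 2.19% for the other regions. It was higher at 0.806% of the higher, 0.436% of the lower and 0.806% of the other regions. These shares are classed by the ratio that chose the members. Lower regions that are nearest to each other are counted from both sides, so the binomial interval may be too narrow. The median ratio of the neighbour was 0.982 beside higher, 0.931 beside lower and 0.935 beside other regions, so the neighbours of lower members had ratios much like those elsewhere. A K295A peak without a WT peak lay within 10 kb of 9.73% of the higher, 14.1% of the lower and 12.5% of the other regions. A WT peak without a K295A peak was as near to 23.6%, 22.3% and 22.3%. Within 10 kb of a peak in the untagged libraries lay 2 higher and 13 lower regions (0.319% and 0.838%, against 0.646%).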

How the data were processed

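Peak lists of 4 HA and 8 FOXA1 ChIP-seq libraries were used. The submitters' processing notes name Bowtie2, HOMER 4.2 and the build hg19. The authors called peaks library by library with findPeaks (factor mode), per the file headers, with an FDR limit of 0.001 and at least 4-fold over a local window of 10 kb at p 0.0001. An input library served as a further filter for the FOXA1 lists but not for the HA lists, per the file headers. The deposited normalized tag count is a signal per 1e7 tags. The deposited findPeaks score, the fold over the local window (a ratio) and the focus ratio (a fraction) are the peak caller's own values. Multiplying the normalized value by the library total gave whole tags within print rounding for 100% of peaks, and these equalled the deposited count at 97.3%, 100% and 100% of peaks in the 3 libraries that give it.

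The members and lists were chosen with earlier results of these data known. Regions were named by rank of their interval (6 per direction, 4 with peaks in both DMSO libraries, 2 on each side of the threshold; chromosome 8 and chromosome Y left out of the first 2 ranks). Ratios carry 95% exact (Clopper-Pearson) intervals, which cover counting error only. FOXA1 height was tested with limma 3.58.1 (trend on) on log2 (value + 1), a scale that understates changes of weak peaks, with the 4 groups in 1 model; edgeR 4.0.16 on recovered tags was an alternative. Whether replicates came from separate cultures is not in the labels, and the p-values cover the spread of these libraries alone, which may be technical. Replicate 1 and 2 numbers come from the titles. Deviations of same-numbered libraries correlated at 0.148 to 0.488 in all 6 pairs of groups, so the numbers pair the libraries. The counting, interval and fitting steps were checked on simulated data first. Alternatives covered other scalings, thresholds, occupancy measures, fits and leaving out libraries. Gene annotation and sequence at the regions were not analysed here.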

Additional observations from a re-analysis of the deposited data

How the results depend on the processing

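The share of higher regions called in both DMSO libraries exceeded that of lower regions in 19 of 19 alternatives, by 15.9 to 43.9 percentage points. These alternatives reuse the same regions and FOXA1 libraries, so they are not independent. Taking 1 peak of each library, or the sum over peaks, could change nothing, since 0 shared regions had more than 1 WT or K295A peak. The shares of shared regions that were higher and lower, 0.929% and 2.30% as reported, moved with scaling and depth. They were 1.61% and 1.40% both after division by the median ratio and when scaled to tags in shared regions (counting error alone 839 and 665 regions in each). They were 0.394% and 1.44% of regions with 60 or more summed tags (15.4 and 74.9 regions from counting error), 0.243% and 1.01% of those with a findPeaks score of at least 17 (58.9 and 232), and 0.0222% and 0.0356% at 3-fold. Counting error alone gave 790 and 757 regions with a common ratio of 1, and 568 and 1519 with no lower limit on tags. Shares called in both DMSO libraries were 82.3% and 43.0% at 60 or more tags, 86.5% and 42.6% at a score of 17 or more, and 73.3% for higher regions at 3-fold. Other measures of occupancy gave 79.3% and 62.6% (at least 1 library) and 31.9% and 16.0% (all 8), and leaving out either DMSO replicate gave 63.5% to 67.8% and 41.5% to 47.4%.

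Some alternatives were chosen after seeing the data. The ratio of scores gave 0.603% and 0.840% of regions, the header tag thresholds gave 316 and 754 regions from counting error, and peaks in all 7 libraries other than combination replicate 1 gave 46.9% and 26.4%. Adding 1 to both values gave 468 and 1236 regions.

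With the replicate block and centring, 3 members in EPZ-6438 (0.670%, against 0.689% of all) and 11 in the combination (2.46%, against 4.23%) passed, and edgeR with TMM and the replicate block gave 8 and 8 (1.79% of the members each, against 1.61% and 3.22% of all tested regions). Leaving out 1 library from the blocked and centred fit with its replicate block gave, with the shares of all tested regions in the same fits at 0% to 1.97% for EPZ-6438 and 0.199% to 7.67% for the combination, 0 members in EPZ-6438 without a DMSO or EPZ-6438 library, 3 without a P5091 library, and 11 and 6 without combination replicates 1 and 2. In the combination contrast it gave 4 without either DMSO library, 7 without either EPZ-6438 library, 9 and 10 without P5091 replicates 1 and 2, and 2 and 25 without combination replicates 1 and 2. In the fit without block, leaving out 1 library gave 0 to 259 in the combination, the 259 (57.7%, against 66% of all tested regions) without combination replicate 2, when the lone replicate 1 is assumed to vary like the other groups. The cause of these differences was not tested. The replicate block alone changed no count from 0. Depth limits single regions: the median member holds under 50 tags in all, each tagged protein has 1 library, and spread between experiments was not measured.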
